A study of Mus musculus with 2 samples.

Results

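Amino acids enter and leave cells through solute carriers, and in mammals several carrier families share the work. The genes described here are the 47 protein-coding genes, of 21542 listed genes, whose symbols start with Slc1a, Slc3a, Slc6a, Slc7a, Slc36a, Slc38a or Slc43a. The rule that chose them used names and not values, but it was set with earlier results of these data known. Of the 47 genes, 46 encode transporters or transporter subunits. The exception, Slc7a6os, is a neighbour of Slc7a6 whose symbol carries the same prefix, and it encodes no transporter. The GENCODE M21 annotation holds 64 protein-coding genes with these prefixes, and the 17 without a row in the table are not analysed here.

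The mRNA came from MIN6 cells, a mouse insulinoma line of C57BL/6 origin that is widely used in place of primary beta cells. One library came from cells given a vector that expresses the glucocorticoid receptor (the GR vector) and 1 from cells given a control vector. Both cultures grew in DMEM with 25 mM glucose and 15% serum and received 4 ug of plasmid with 4.8 ul of a lipid transfection reagent per 3.5 cm dish. The form of the receptor cDNA, the use of a glucocorticoid, the time of harvest and the share of cells that took up plasmid are not stated in the sources used here. With 1 library per group no difference has a replicate check. Intervals and tests on the reads cover counting error only and compare these 2 libraries, not the conditions.

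The libraries held 18525668 reads (GR vector) and 18537326 reads (control vector) over genes. Nr3c1, the gene of the receptor, had 5202 reads with the GR vector and 2645 with the control vector, a fold of 1.97 (95% interval 1.88 to 2.07). Of 14 beta cell markers 13 were listed, and their fold ran from 0.915 to 1.08, with 1 higher and 4 lower with the GR vector in the library test defined below. Over all well-read genes (defined below) 2.77% were higher and 1.92% lower. The 4 lower markers, Ins2, Iapp, Chga and Ins1, each had over 10000 reads, a depth at which 37.1% of all genes passed. Slc2a2, Mafa and Slc30a8 were also read that deeply and did not pass. The calls are thus not read as a broad shift of beta cell markers. Some of the marker calls changed with the trends of log2 fold on GC content and gene length removed. Pcsk1, the 1 higher marker, and Chga then did not pass (adjusted p 0.624 and 0.335 in the exact binomial test). Mafa and Pdx1 then passed as higher (1.29e-05 and 0.000488 in that test). Ins2, Iapp and Ins1 still passed as lower (7.3e-116, 3.5e-152 and 1.5e-13 in that test). Their log2 folds were then -0.08, -0.10 and -0.07 in place of -0.13, -0.05 and -0.07. Ins2 held 373033 and 407986 reads in the GR and control libraries. Markers of other cells went both ways. Summed over each list, they held 5910 reads with the GR vector and 5825 with the control vector for alpha, delta and PP cells, 2179 and 2436 for exocrine and duct cells, and 9546 and 9536 for neurons. The sums were 96 and 78 reads for fibroblasts and endothelium and 214 and 212 for immune cells. Most of these sums came largely from 1 gene and are not levels of cell types. In the GR and control libraries Ttr held 5164 and 5187 reads, Krt7 2166 and 2429, Col1a1 68 and 55, and C1qa 192 and 186. Only 4 of 7 alpha, delta and PP cell markers and 2 of 9 exocrine and duct markers were listed. Glucagon (Gcg) had 623 and 537 reads, a fold of 1.164 (1.035 to 1.308), with an adjusted p of 0.173 in the exact binomial test. The duct keratin gene Krt7 (fold 0.894) and the neuronal gene Tubb3 (fold 0.867) were lower in the library test, and no marker of these other cells was higher. With the same trends removed, neither Krt7 nor Tubb3 passed (adjusted p 0.124 and 0.252 in the exact binomial test). Somatostatin (Sst), with 114 reads with the GR vector and 92 with the control vector, was the only well-read marker past a fold of 1.2. Its fold was 1.24, its interval spanned 1 (0.936 to 1.65), and its adjusted p was 0.534 in the exact binomial test. The part of these markers in the results below was not tested. In bulk RNA, fewer cells of a type and less RNA per cell cannot be told apart.

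Amino acids matter to the beta cell as fuel, as triggers of insulin release and as building blocks of insulin itself. Leucine and glutamine feed mitochondrial metabolism, and cationic amino acids such as arginine depolarize the membrane as they enter. A heteromeric transporter pairs a heavy chain, which brings the complex to the plasma membrane, with a light chain of the Slc7 family, which carries the substrate. When amino acids run short, the kinase encoded by Eif2ak4 raises the transcription factor ATF4. ATF4 binds the C/EBP-ATF response element, abbreviated CARE, in genes such as Slc7a11.

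To show what such an element looks like in the members, the RefSeq windows from 250 bases before to 50 bases after each gene start (GRCm38.p6) were searched on both strands. The CARE was searched as TGATGNAA. For the receptor itself, the full glucocorticoid response element was searched as AGAACA and TGTTCT with 3 bases of any kind between them, and a shorter core as GNACA and TGTNC with the same spacing, which lies within the full element. Windows were found for 37 of the 47 members, 58 windows in all. The CARE letters occurred in 4 of these 58 windows (6.90%), belonging to Slc7a11, Slc7a7 and Slc1a4, against 3.97% of all 32851 windows. Overlapping windows of Slc7a7 share 1 TGATGCAA, so this site is counted in both of them. Neither form of the glucocorticoid element occurred in a member's window, where it occurred in 0.00913% (full element) and 0.475% (core) of all windows. These are matches of letters and say nothing about binding. Stretches of 100 bases before the RefSeq start are printed for Slc7a11 (chr3:50443624-50443723, minus strand) and Slc7a7 (chr14:54418025-54418124, minus strand), which carry the CARE. They are also printed for Slc7a14 (chr3:31310380-31310479, minus strand), the 1 member higher with the GR vector in the library test below, whose window held none of these letters. Sequences run 5′ to 3′ along the gene's strand, and capitals mark the CARE.
Slc7a11: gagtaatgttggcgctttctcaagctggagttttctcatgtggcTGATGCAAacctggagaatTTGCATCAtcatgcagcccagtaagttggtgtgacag
Slc7a7: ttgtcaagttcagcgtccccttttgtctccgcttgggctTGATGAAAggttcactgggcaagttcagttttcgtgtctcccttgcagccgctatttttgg
Slc7a14: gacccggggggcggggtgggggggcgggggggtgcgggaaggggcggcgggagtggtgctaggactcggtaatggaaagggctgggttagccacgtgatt
The printed stretch of Slc7a11 held 2 copies, 1 on each strand, and that of Slc7a7 held 1. The TGATGCAA of Slc7a7 begins 1 base before the same RefSeq start and lies outside the printed stretch.

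Across the members the 2 libraries were close. The members together took 112338 reads with the GR vector and 112071 with the control vector, 0.606% and 0.605% of all reads. At least 100 reads on average over both libraries, called well read here, were held by 29 of the 47 members, and their fold (GR vector over control vector, on library sizes scaled by TMM) ran from 0.867 for Slc1a5 to 1.15 for Slc7a6os. Of these 29, 16 lay above 1 and 13 below. Their median log2 fold was 0.0067, against 0.0042 over all 11070 well-read genes, of which 51.3% lay above 1. None of the 29 reached a fold of 1.2 in either direction, where 5.04% of all well-read genes did.

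**Figure D1:**
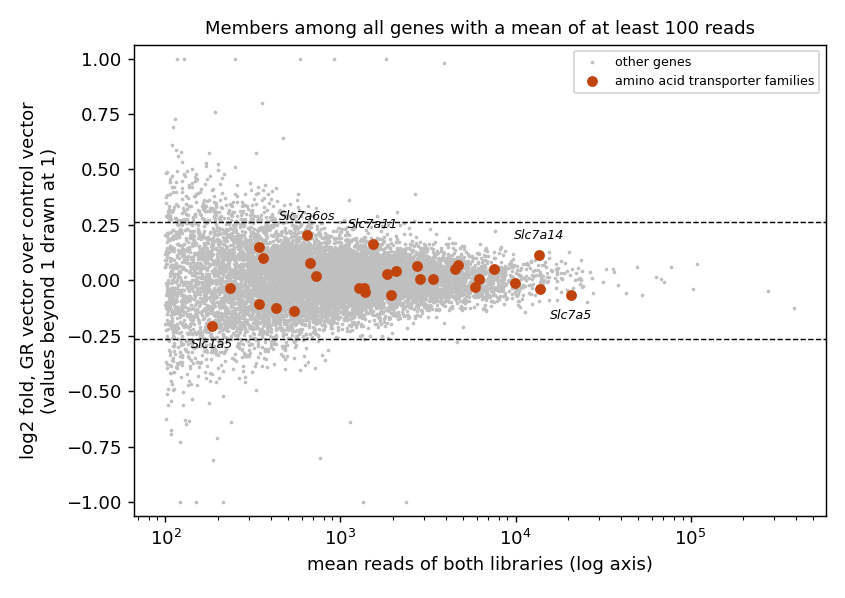
Each point is a well-read gene, with its mean reads over both libraries on the x axis (log scale) and its log2 fold (GR vector over control vector) on the y axis. Members are drawn large, dashed lines mark a fold of 1.2, and the 29 members lie between the lines.

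An exact binomial test of the reads, adjusted by Benjamini-Hochberg over all genes and called the library test here, found 1 member higher and 1 lower with the GR vector. Among the 29 well-read members that is 6.90%, against 4.69% of all well-read genes (2.77% higher and 1.92% lower); over all listed genes it was 2.72%. Both called members had over 10000 reads. At that depth 2 of 3 members and 37.1% of all genes passed, so the count of members stands on few genes. With the trends of log2 fold on GC content and gene length removed, 1 of the 29 and 1.63% of all well-read genes passed. The authors' deposited table called 0 of the 47 members at an adjusted p under 0.05, where it called 0.0186% of all genes, and 0 at an unadjusted p under 0.05, where it called 1.09%. The deposited p-values equal those of an exact test with a preset spread of 20% between libraries.

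**Figure D2:**
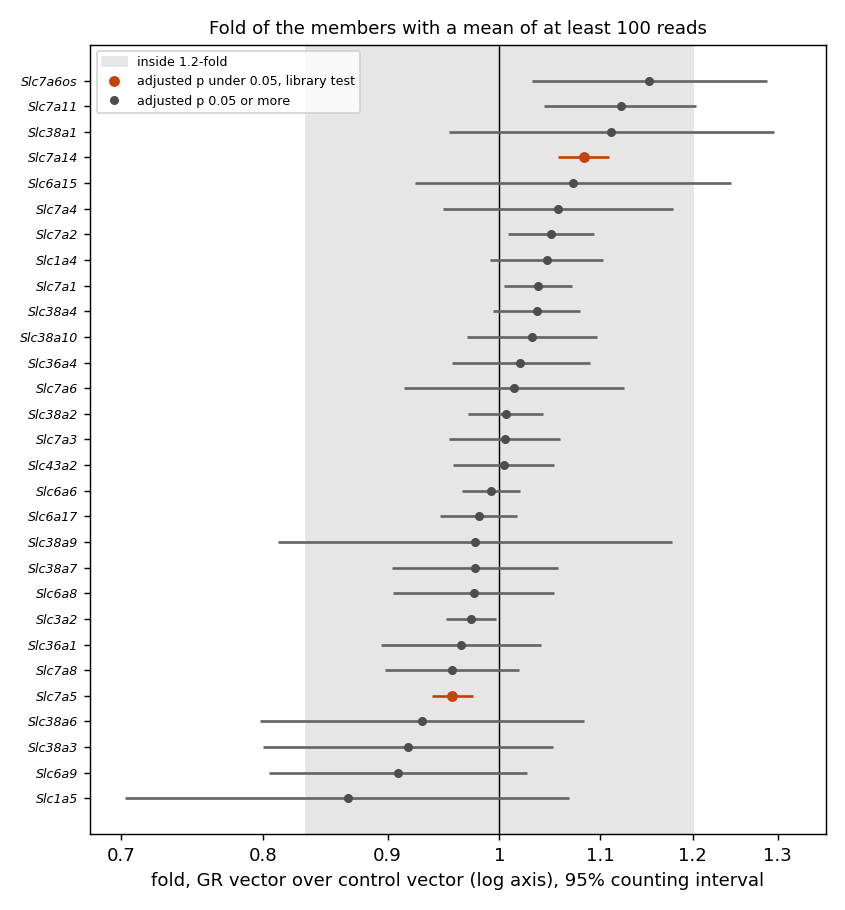
Fold (GR vector over control vector) of the 29 well-read members (x axis, log scale), 1 gene per row, with the 95% counting interval as a line. The grey band spans 1.2-fold in either direction, and the 2 coloured members, Slc7a14 at 1.08 and Slc7a5 at 0.957, passed the library test.

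The heavy chain and its main light chain were the most abundant members. Slc7a5 encodes LAT1, the light chain that carries large neutral amino acids such as leucine in exchange for glutamine (ENSMUSG00000040010, chromosome 8, 121881150 to 121907694, minus strand). It had 20290 reads with the GR vector and 21275 with the control vector, a fold of 0.957 (95% interval 0.938 to 0.975). It was lower in the library test, with an adjusted p of 0.000916 from the exact binomial test. With the trends of GC content and gene length across all genes removed, its log2 fold was -0.01 in place of -0.06 and its adjusted p 0.837. The call thus rests on counts without that correction.

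Slc3a2 encodes the heavy chain 4F2hc, also known as CD98 (ENSMUSG00000010095, chromosome 19, 8706882 to 8723369, minus strand). It had 13621 reads with the GR vector and 14027 with the control vector, a fold of 0.974 (0.951 to 0.997), with an adjusted p of 0.293 in the exact binomial test. Its log2 fold of -0.04 became 0.0017 with the trends removed. Per length, Slc7a5 stood at 295.4 and Slc3a2 at 208.3 reads per kilobase of gene length and per 1000000 reads (RPKM) with the GR vector, and at 309.5 and 214.4 with the control vector. These 2 genes held 46.4% of the summed RPKM of all members with the GR vector and 47.8% with the control vector.

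The other partners of 4F2hc were far less abundant. Slc7a8 encodes LAT2, a second exchanger of neutral amino acids, and stood at 20.6 RPKM with the GR vector and 21.6 with the control vector (1907 and 1999 reads, fold 0.957, 0.898 to 1.02). Slc7a6, which encodes y+LAT2, an exchanger of cationic for neutral amino acids, stood at 8.66 and 8.56 RPKM in the GR and control libraries (733 and 725 reads, fold 1.01, 0.914 to 1.13). Slc7a5 alone made up 88.9% of the summed RPKM of the 5 listed partners (Slc7a5, Slc7a6, Slc7a7, Slc7a8 and Slc7a11) with the GR vector and 89.4% with the control vector. The heavy chain's RPKM was 0.627 of that sum with the GR vector and 0.620 with the control vector, so the ratio of heavy to light chain transcripts was close in the 2 libraries.

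**Figure D3:**
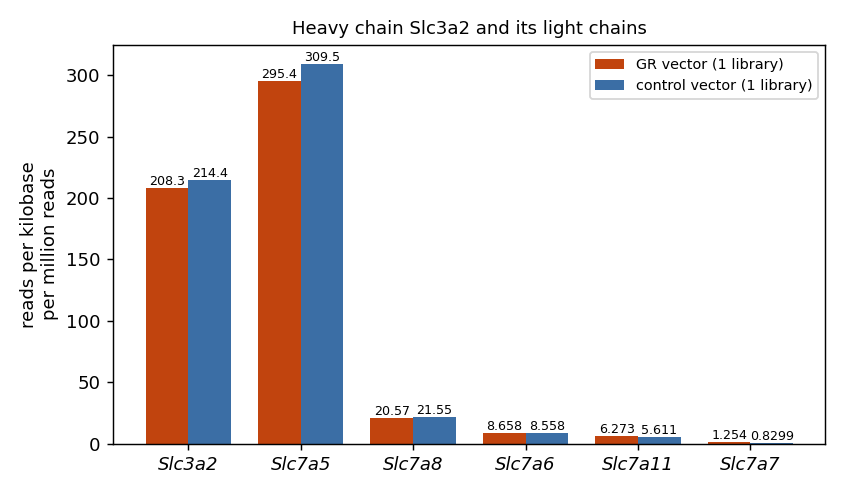
Level of the heavy chain gene Slc3a2 and of its 5 listed light chain partners in RPKM (y axis, from 0), with the GR vector bar left of the control vector bar for each gene and 1 library per bar. Slc7a5 at 295.4 and 309.5 exceeds every other light chain, of which Slc7a8 comes next at 20.6 and 21.6.

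Slc7a11 encodes xCT, the light chain that imports cystine in exchange for glutamate and so feeds glutathione synthesis (ENSMUSG00000027737, chromosome 3, 49892526 to 50443614, minus strand). It had 1618 reads with the GR vector and 1448 with the control vector, a fold of 1.12 (1.04 to 1.204). Its adjusted p in the exact binomial test was 0.0579 over all genes, just short of the threshold, and 0.0410 where genes under a mean of 10 reads were left out of the adjustment. With the trends removed its log2 fold was 0.09 in place of 0.16, with an adjusted p of 0.594. Whether it passed thus turned on which genes were adjusted together, and it did not pass with the trends removed.

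Slc7a7 encodes y+LAT1, whose loss in humans causes lysinuric protein intolerance. It had 77 reads with the GR vector and 51 with the control vector, a fold of 1.51 (1.05 to 2.20) and an adjusted p of 0.253 in the exact binomial test. Among the 18 less read members its interval alone left out 1, which is 5.56% of them. The same share over all less read genes was not computed, so nothing is read from this. The exons of Slc7a7 overlap those of Oxa1l on the opposite strand by 232 bases, 6.998% of their length. The sources used here do not say whether counting used strand. The second heavy chain, rBAT (Slc3a1), belongs to a complex that carries cystine and cationic amino acids in kidney and gut. Slc3a1 had 11 reads with the GR vector and 9 with the control vector. Its light chain gene Slc7a9 had 2 reads with the GR vector and 0 with the control vector. The rodent light chain gene Slc7a15 had 42 and 50 reads in the GR and control libraries. Transcripts of the rBAT complex were thus at or near the limit of detection in both libraries.

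The cationic amino acid transporter branch of Slc7, whose members need no heavy chain, held the member that was higher in the library test. Slc7a14 is a lysosomal member of this branch, known for mutations in inherited human retinal disease (ENSMUSG00000069072, chromosome 3, 31202858 to 31310378, minus strand). It had 14179 reads with the GR vector and 13135 with the control vector, a fold of 1.08 (1.06 to 1.11) and an adjusted p of 3.27e-08 in the exact binomial test. With the trends removed its log2 fold was 0.09 in place of 0.11, with an adjusted p of 4.6e-05, so this member still passed. With a preset spread of 10% between libraries, edgeR's exact test gave it an adjusted p of 1. At 77.9 RPKM with the GR vector and 72.1 with the control vector it was the third most abundant member per length.

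The 3 plasma membrane transporters of arginine and lysine were expressed side by side. Slc7a1 (CAT1) had 7614 reads with the GR vector and 7362 with the control vector, a fold of 1.04 (1.00 to 1.07). Slc7a2 (CAT2) had 4808 and 4594 reads in the GR and control libraries, a fold of 1.05 (1.01 to 1.09). Slc7a3 (CAT3) had 2846 and 2841 reads, a fold of 1.01 (0.953 to 1.06). Per length their shares were similar, with Slc7a1 at 34.1%, Slc7a2 at 27.1% and Slc7a3 at 38.8% of their summed RPKM with the GR vector, and at 33.7%, 26.6% and 39.7% with the control vector. Slc7a4, a member with no established substrate, had 687 and 652 reads in the GR and control libraries (fold 1.06, 0.948 to 1.18). All 5 genes of this branch lay above 1, where 51.3% of all well-read genes did, with a median log2 fold of 0.07 (0.05 with the trends removed). In the library test 1 of the 5 passed, against 4.69% of all well-read genes, and 5 genes are too few to read a difference from this.

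The 95% interval of the fold left out 1 for 7 of the 29 well-read members (24.1%), against 19.5% of all well-read genes. These were Slc7a14, Slc7a1, Slc7a2, Slc7a11 and Slc7a6os above 1, and Slc7a5 and Slc3a2 below. Slc7a6os, whose relative in budding yeast takes part in the nuclear import of RNA polymerase II, had 689 reads with the GR vector and 600 with the control vector. Its fold of 1.15 (1.03 to 1.29) was the highest among the well-read members, with an adjusted p of 0.188 in the exact binomial test.

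The sodium-coupled transporters of the Slc38 family carry glutamine, alanine and other small neutral amino acids. Of 10 listed members 8 were well read, 4 above 1 and 4 below, and 0 passed the library test. Slc38a2 (SNAT2), a transporter that many cells induce when amino acids are scarce, had 6171 reads with the GR vector and 6152 with the control vector, a fold of 1.01 (0.971 to 1.04). Slc38a4 (SNAT4), an imprinted gene, had 4612 and 4466 reads in the GR and control libraries, a fold of 1.04 (0.994 to 1.08). At 58.4 and 56.5 RPKM it was the most abundant Slc38 gene per length and had rank 5 among the members in both libraries. These abundant members differed by less than 4% between the libraries.

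Other Slc38 genes were read less. Slc38a10 had 2115 reads with the GR vector and 2058 with the control vector, and Slc38a7, a lysosomal exporter of glutamine, had 1264 and 1297. Slc38a9, the lysosomal arginine sensor that activates mTORC1, had 230 reads with the GR vector and 236 with the control vector (fold 0.977, 0.812 to 1.18). Slc38a1 had 359 and 324 reads in the GR and control libraries (fold 1.11, 0.954 to 1.30), and Slc38a3, a transporter of glutamine and histidine, 409 and 447 (fold 0.918, 0.801 to 1.05). For these genes the counting interval spanned 1. Slc38a6 had 330 and 356 reads, of which an unknown part is uncertain, since 40.7% of its 31-mers (stretches of 31 bases) also occur in another annotated gene. Slc38a8 had 60 and 63 reads and Slc38a5, a glutamine transporter described in alpha cells, 10 and 13.

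In the Slc1 family the neutral amino acid exchangers were well read and the glutamate transporters were scarce. Slc1a4 (ASCT1), which exchanges serine, alanine and cysteine, had 2783 reads with the GR vector and 2669 with the control vector, a fold of 1.05 (0.991 to 1.103). Slc1a5 (ASCT2), the glutamine exchanger of many tumour lines, had 172 and 199 reads in the GR and control libraries, a fold of 0.867 (0.703 to 1.07), the lowest among the well-read members. Per length Slc1a4 stood at 38.3 and 36.7 RPKM, and Slc1a5 at 2.23 and 2.57. The glutamate transporter genes Slc1a1, Slc1a2 and Slc1a7 together had 20 reads with the GR vector and 25 with the control vector. Their differences could not be resolved at this depth. Slc1a1 shares 31.5% of its 31-mers with another gene, and 31.9% of its exon length overlaps 4430402I18Rik on the opposite strand.

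The Slc6 family couples uptake to sodium, and its most abundant member was the taurine transporter gene Slc6a6. It had 9940 reads with the GR vector and 10047 with the control vector, a fold of 0.992 (0.965 to 1.02), and had rank 4 by RPKM in both libraries (63.4 and 64.1). Slc6a17, a transporter of neutral amino acids into synaptic vesicles, had 5778 and 5909 reads in the GR and control libraries, a fold of 0.981 (0.946 to 1.02). Slc6a8, the creatine transporter, had 1342 and 1379 reads, a fold of 0.976 (0.905 to 1.05). All 3 lay within 3% of equal levels.

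Slc6a9 (GlyT1), the glycine transporter, had 513 reads with the GR vector and 566 with the control vector, a fold of 0.909 (0.805 to 1.03). Its exons overlap those of Ccdc24 on the opposite strand over 27.8% of their length, so its count is uncertain. Slc6a15, a carrier of branched-chain amino acids and proline, had 373 and 349 reads in the GR and control libraries (fold 1.07, 0.924 to 1.24). Slc6a19, the neutral amino acid transporter of gut and kidney, had 75 and 83 reads. The other neuronal and epithelial members were scarce. Slc6a5 had 22 reads with the GR vector and 13 with the control vector, and Slc6a14 had 13 and 7. Slc6a16 had 5 reads in each library and Slc6a20b 1 and 2. The GABA and betaine transporter genes Slc6a11, Slc6a12 and Slc6a13 together had 13 reads with the GR vector and 14 with the control vector.

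In the Slc36 family, Slc36a1 (PAT1) encodes a proton-coupled carrier that exports amino acids from lysosomes. It had 1358 reads with the GR vector and 1412 with the control vector, a fold of 0.964 (0.895 to 1.04). Slc36a4 (PAT4) had 1860 and 1828 reads in the GR and control libraries, a fold of 1.02 (0.956 to 1.09). Of the Slc43 genes, which encode sodium-independent carriers of large neutral amino acids, Slc43a2 (LAT4) had 3372 and 3368 reads, a fold of 1.00 (0.957 to 1.05). Slc43a1 (LAT3) had 14 and 16 reads in the GR and control libraries. The intervals of Slc36a1, Slc36a4 and Slc43a2 all spanned 1, and nearly all Slc43 reads came from Slc43a2.

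**Figure D4:**
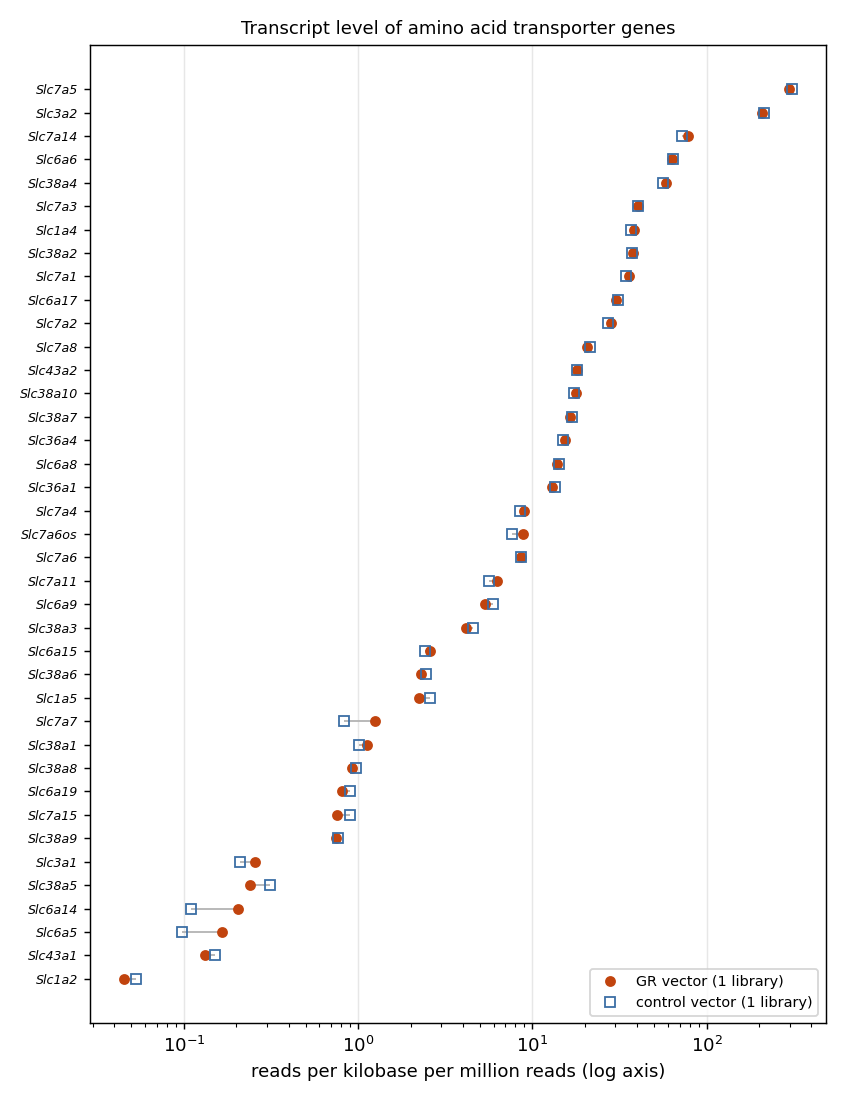
Level of the members with 10 or more reads on average in RPKM (x axis, log scale), 1 gene per row, with filled circles for the GR vector library and open squares for the control vector library. Slc7a5 (295.4 and 309.5) and Slc3a2 (208.3 and 214.4) stand apart from the rest in both libraries, and the order of the genes was nearly the same in both.

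Ranked by RPKM, the first 6 members (Slc7a5, Slc3a2, Slc7a14, Slc6a6, Slc38a4 and Slc7a3) came in the same order in both libraries, and no well-read member moved by more than 2 places. No member lay close to the limit of 100 reads. The nearest above it were Slc1a5, with a mean of 185.5 reads, and then Slc38a9, and the nearest below were Slc6a19 and Slc7a7, with means of 79 and 64. Of the 18 members below it, 14 had a mean under 25 reads. In 5 members, 25% or more of the 31-mers occur in another gene, and these were Slc6a9, Slc38a6, Slc3a1, Slc6a20b and Slc1a1. The 31-mers were compared on both strands, so exons that overlap on the opposite strand count as shared. Such overlap with 1 gene covered 27.8% of the exons of Slc6a9, 26.5% of Slc3a1, 21.1% of Slc6a20b and 31.9% of Slc1a1. It matters to the counts only if counting ignored strand, which is not stated.

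Genes that use, make or sense amino acids were set beside the transporters in 6 lists. None of their well-read genes reached a fold of 1.2. The counts below stand beside 51.3% of all well-read genes above 1, and 2.77% higher and 1.92% lower in the library test. In the amino acid response list, 12 genes were well read, 6 above 1 and 6 below, with a median log2 fold of -0.01. Atf4, the transcription factor that binds the CARE, had 9526 reads with the GR vector and 9485 with the control vector, a fold of 1.01 (0.979 to 1.04). Its relative Atf5 had 10089 and 10994 reads in the GR and control libraries, a fold of 0.920 (0.896 to 0.946) and an adjusted p of 7.82e-07 in the exact binomial test, the 1 call of the list. With the trends removed that adjusted p was 0.0851. Sesn2, a leucine sensor, had a fold of 0.977, and the asparagine synthetase gene Asns, a classic ATF4 target, had 8286 and 8123 reads. Atf4, Asns, Trib3, Chac1, Nupr1 and Ddit4 were named after their values were seen. For Trib3, Chac1, Nupr1 and Ddit4, as for Atf5, the interval left out 1, where it did for 19.5% of all well-read genes. For Sesn2, Atf4, Asns, Vldlr, Ddit3, Cebpb and Eif2ak4 it held 1. Trib3 (fold 0.9545, 0.923 to 0.987), Chac1 (0.952, 0.919 to 0.986) and Nupr1 (0.958, 0.925 to 0.9925) lay below 1, with intervals that left it out. Ddit4 (1.09, 1.005 to 1.19) lay above 1, as did its interval. None of them passed the library test. With the trends removed their log2 folds were -0.02, -0.02, -0.05 and 0.18 in this order.

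**Figure D5:**
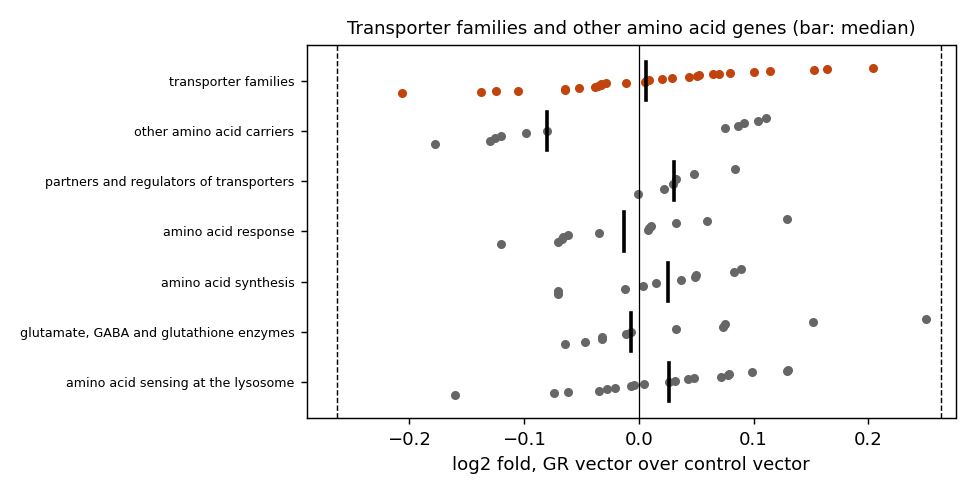
Log2 fold (GR vector over control vector, x axis) for the 29 well-read transporter family members in the top row and the well-read genes of the 6 other lists below, 1 point per gene, with a bar at each median. Dashed lines mark a fold of 1.2, and no point lies outside them.

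Of the 20 genes of amino acid sensing at the lysosome 19 were well read, 11 above 1 and 8 below, and 2 were higher in the library test, which is 2 of 19 against the 2.77% of all well-read genes. Sesn3 had 5408 reads with the GR vector and 4958 with the control vector, a fold of 1.09 (1.05 to 1.14) and an adjusted p of 0.000842 in the exact binomial test (0.185 with the trends removed). Castor2, a relative of the cytosolic arginine sensor, had 2973 and 2725 reads in the GR and control libraries, a fold of 1.09 (1.04 to 1.15) and an adjusted p of 0.0343 in that test (0.0124 with the trends removed). Castor2 therefore passed with and without the correction.

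The remaining lists held no member past the library test. Serine, glycine, proline and cysteine synthesis had 10 well-read genes, 7 above 1 and 3 below. Among them were Shmt2 with 8492 reads (GR vector) and 8939 (control vector) and Psat1 with 8405 and 8342. Shmt2 (fold 0.953, 0.925 to 0.982) fell just short, with an adjusted p of 0.0521 in the exact binomial test and 0.917 with the trends removed. Of 11 well-read glutamate, GABA and glutathione enzymes 5 lay above 1 and 6 below. Glul, glutamine synthetase, had 10280 reads with the GR vector and 10650 with the control vector, and the aspartate aminotransferase gene Got2 had 3409 and 3434. Other amino acid carriers had 11 well-read genes, 5 above 1 and 6 below, led by Slc25a44, a mitochondrial carrier of branched-chain amino acids, with 3420 and 3626 reads in the GR and control libraries. Slc16a10, an exporter of aromatic amino acids, had 2554 and 2413. Of the 6 well-read partners and regulators of transporters 5 lay above 1, with Nedd4, a ubiquitin ligase that acts on membrane proteins, at 16195 reads (GR vector) and 15713 (control vector), and Arl6ip1 at 6501 and 6376.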

How the data were processed

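RNA sequencing values of 1 GR vector and 1 control vector library were used. The authors deposited a scaled signal per gene, of which 100% of values were whole multiples of 1 step per library within 0.01 reads, and whole reads were recovered by dividing by it. The authors also deposited a log2 fold change, a p-value and an adjusted p-value. The submitters' processing notes name DESeq2 1.10.1 with no role; the aligner, counter, strand handling and build are not stated in the sources used here. The deposited p-values differed from edgeR 4.0.16's exact test with a preset dispersion of 0.04 by at most 4.5e-08. Library sizes were scaled by TMM (edgeR). Folds carry exact 95% Clopper-Pearson intervals. The library test is an exact two-sided binomial test with Benjamini-Hochberg adjustment over 21542 genes, without a filter on low counts, at 0.05 (scipy 1.17.1). It was tested on simulated reads that varied by counting error only. That simulation cannot show how the test behaves when libraries of the same condition differ by more than counting error. The design foresaw a quasi-likelihood test, which needs replicates. RPKM uses the deposited gene length. GC content, shared 31-mers and exon overlaps came from GENCODE M21 (GRCm38), where 46 of the 47 members have the table's coordinates. GC and length trends were removed by lowess (span 0.3). Alternatives were other size factors, filters, thresholds and dispersions. Well-read means a mean of at least 100 reads, and every well-read member is named, as is every member past a call. From each other list the text names the genes past the library test and the 2 with the most reads. Atf4, Asns, Trib3, Chac1, Nupr1 and Ddit4, outside this rule, were added after their values were seen. Members and lists were chosen with earlier results of these data known. No value column belonged to a sample outside the series (0 columns).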

Additional observations from a re-analysis of the deposited data

How the results depend on the processing

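All alternatives changed 1 choice at a time. Total reads without a factor or DESeq2 size factors shifted all log2 folds by at most 0.0042 and changed no call and no count of members. The single higher call (Slc7a14) became 2 with a minimum mean of 10 or of 100 reads before adjustment, when Slc7a11 passed as well, and 0 with edgeR's exact test at a preset dispersion of 0.01 or 0.04. The single lower call (Slc7a5) became 0 with the GC and length trends removed, where its log2 fold was -0.01, and 0 at either dispersion. The count of 0 members at a fold of 1.2 became 1, Slc7a7, with a minimum mean of 50 reads. It stayed 0 under the other alternatives. The trends moved 2 uncalled members beyond their counting interval with a change of sign, Slc3a2 to 0.0017 and Slc38a2 to -0.04. No paired analysis was possible because each group had 1 library, and no library could be left out. Precision is set by the reads of each gene, and a count of 0 allows up to 3 reads.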
